A study of Mus musculus with 10 samples.

Results

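The 9 genes described here are the core of the Sonic hedgehog pathway, *Shh*, *Ptch1*, *Smo*, *Gli1*, *Gli2*, *Gli3*, *Hhip*, *Boc* and *Cdon*, which were chosen by gene symbol through the Ensembl identifiers of the count matrix, and make up 9 of its 54146 genes. They were measured by RNA-sequencing of polyA RNA from the lumbar spinal cord, with the dorsal root ganglia left on, of 10 mouse embryos at E12.5. 5 embryos were *Dot1l*-cKO (Wnt1cre2/+; Dot1lfl/fl), which lack the H3K79 methyltransferase DOT1L where the Wnt1-cre transgene has been active, and 5 were littermate controls without the transgene. The shared number in the sample names placed them in 2 litters. Litter 1 held 3 *Dot1l*-cKO and 3 control embryos, and its controls carried 2 floxed *Dot1l* alleles. Litter 2 held 2 *Dot1l*-cKO and 2 control embryos, and its controls carried 1 floxed allele, so that among controls litter and allele number cannot be told apart. The *Wnt1* promoter drives recombination mainly in the dorsal neural tube and the neural crest, whereas *Shh* is made ventrally, so cells with and without *Dot1l* were mixed in each sample. No embryo carried the transgene without the deletion, so the transgene and the loss of *Dot1l* cannot be told apart.

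SHH is secreted by the notochord and the floor plate and spreads dorsally as a graded signal. It binds its receptor PTCH1, with BOC and CDON as co-receptors, and thereby releases the transducer SMO, which acts through the GLI transcription factors in the primary cilium. GLI2 is the main activator and GLI3 acts mostly as a repressor in the dorsal and intermediate spinal cord, while *Gli1*, *Ptch1* and *Hhip* are transcribed where the pathway is active and serve as its readout, the latter 2 genes as negative feedback.

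The libraries held between 40949585 and 68928443 counts over genes. *Dot1l* itself was not lower in the *Dot1l*-cKO embryos, with 106 ± 6.18 CPM (counts-per-million of the scaled library; mean ± SD, n = 5) against 94.0 ± 7.85 (n = 5) in controls, but counts over the whole gene do not resolve the floxed exon and so do not check the genotype. Both *Dot1l*-cKO embryos of litter 2 had 6.00 to 6.79 CPM of *Xist* and 41.5 to 46.7 CPM of the Y-linked *Ddx3y*, whereas the other 8 embryos had at least 499 CPM of *Xist* and at most 0.242 CPM of *Ddx3y*. Within litter 2, genotype and sex can therefore not be told apart. The dorsal root ganglia of the label were visible as 6.50 to 43.3 CPM of the sensory neuron gene *Avil*, attached mesenchyme as 164 to 388 CPM of *Col1a1*, and of the notochord genes *Noto* was at 0 in every embryo while *T* had 15 to 45 counts. The notochord list without the abundant *Cd24a* summed to 0.834 to 3.18 CPM. In such bulk samples, fewer cells of a type and less RNA per cell cannot be told apart. Each sample was an embryo, and p-values below measure the spread between embryos.

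All 9 members were expressed and passed the filter on low counts. Expressed per exon length, as CPM divided by exon length in kilobases (RPKM), the levels over the 10 embryos fell in the order *Smo* (15.6 ± 2.85, mean ± SD, n = 10), *Boc* (15.3 ± 5.19), *Ptch1* (12.9 ± 1.35), *Cdon* (6.79 ± 1.61), *Gli3* (5.45 ± 2.18), *Gli2* (4.73 ± 1.38), *Shh* (3.80 ± 0.419), *Gli1* (3.53 ± 0.763) and *Hhip* (1.23 ± 0.140). The steps from *Ptch1* to *Cdon*, from *Cdon* to *Gli3* and from *Gli1* to *Hhip* held in 10 of 10 embryos. The order of the other neighbours was not fixed, since *Smo* exceeded *Boc* in 6, *Boc* exceeded *Ptch1* in 6, *Gli3* exceeded *Gli2* in 7, *Gli2* exceeded *Shh* in 8 and *Shh* exceeded *Gli1* in 5 of 10 embryos. The co-receptor *Boc* and the GLI factor *Gli3* had the widest SD relative to their means, and the readout genes *Ptch1* and *Hhip* the narrowest together with *Shh*.

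The regions just upstream of *Gli3* and of the readout genes *Ptch1* and *Hhip* are printed here for reference, while *Gli1* had no entry. The comparison of the dorsal repressor with the ventral targets below used read counts only and no sequence. They are the 250 bases before the RefSeq start site in GRCm38.p6, written 5′ to 3′ on the strand of the gene, with every CG dinucleotide in capitals.
Gli3, chr13:15463473-15463722, plus strand: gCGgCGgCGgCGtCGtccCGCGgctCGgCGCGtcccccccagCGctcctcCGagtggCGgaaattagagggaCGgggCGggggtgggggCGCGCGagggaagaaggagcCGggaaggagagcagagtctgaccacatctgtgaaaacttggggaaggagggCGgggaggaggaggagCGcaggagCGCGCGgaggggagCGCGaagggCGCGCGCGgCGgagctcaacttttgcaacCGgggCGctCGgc
Ptch1, chr13:63565736-63565985, minus strand: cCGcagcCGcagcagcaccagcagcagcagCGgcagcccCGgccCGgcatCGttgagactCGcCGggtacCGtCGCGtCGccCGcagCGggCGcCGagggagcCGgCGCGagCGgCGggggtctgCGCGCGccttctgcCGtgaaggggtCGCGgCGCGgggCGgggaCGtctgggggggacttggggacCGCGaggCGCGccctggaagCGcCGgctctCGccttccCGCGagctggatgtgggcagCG
Hhip, chr8:80058009-80058258, minus strand: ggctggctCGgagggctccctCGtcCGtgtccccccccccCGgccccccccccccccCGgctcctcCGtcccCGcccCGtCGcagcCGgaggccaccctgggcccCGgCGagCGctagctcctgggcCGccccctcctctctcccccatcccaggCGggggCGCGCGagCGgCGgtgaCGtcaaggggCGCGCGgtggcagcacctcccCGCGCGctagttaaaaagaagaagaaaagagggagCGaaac
The *Gli3* start used by RefSeq lies 488 bases inside the GENCODE gene and the *Ptch1* start 7863 bases inside it, both windows in introns of longer transcripts, and the *Gli3* window lies in an exon of the antisense gene *Gm6556*. The windows held 34 CG dinucleotides for *Gli3*, 41 for *Ptch1* and 28 for *Hhip*, and those not printed 22 for *Gli2*, 15 for *Smo* and 1 for *Cdon*, against a median of 6 over all 32851 RefSeq promoter windows of this length. The GLI binding consensus GACCACCCA was searched on both strands, as TGGGTGGTC on the other, and occurred in 0.225% of all windows and in 0 of the 6 members with an entry, *Cdon*, *Gli2*, *Gli3*, *Hhip*, *Ptch1* and *Smo*. An exact match was so rare over all windows that 0 of 6 does not show a lack of GLI sites. Sites outside the windows were not searched. For *Cdon*, whose RefSeq start lies 30948 bases inside the GENCODE gene, no sequence is shown.

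To ask how loss of DOT1L affected the pathway, *Dot1l*-cKO was compared with control across both litters, with litter in the model. *Cdon*, the co-receptor, was the single member that passed an adjusted p of 0.05 and was lower in *Dot1l*-cKO, whereas *Gli3*, the dorsal repressor, showed the largest fitted difference and did not pass. In this fit 1.09% of the 19773 genes tested were called lower and 1.90% higher, against 1 of 9 members lower and 0 higher. The fitted log2 fold change was below 0 for 7 of the 9 members with a median of -0.13, beside a median of -0.008 over all genes tested.

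**Figure D1:**
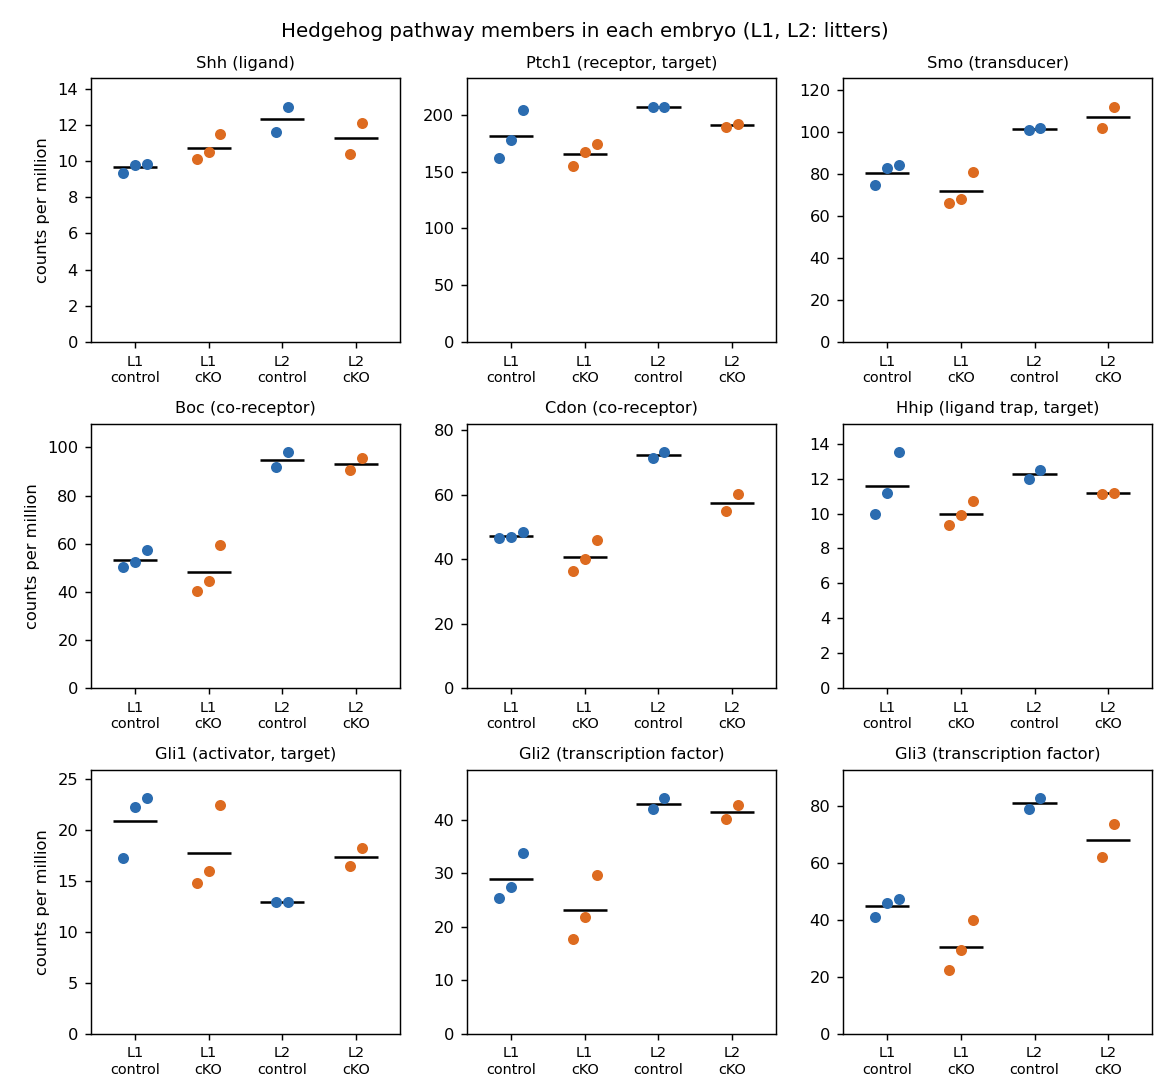
CPM (linear axes from 0) of the 9 members in every embryo, by litter (L1, L2) and genotype; points are embryos and bars are means (3 embryos in each L1 group, 2 in each L2 group). *Gli3* and *Cdon* lie lower in *Dot1l*-cKO than in control in both litters without overlap, *Boc*, *Gli2*, *Gli3* and *Cdon* lie higher in litter 2, and *Gli1* of the controls lies lower in litter 2.

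Among the GLI factors, *Gli3* stood at 22.5, 29.3 and 39.8 CPM in the 3 *Dot1l*-cKO embryos of litter 1 and at 41.1, 45.9 and 47.3 CPM in its 3 controls. In litter 2 *Gli3* stood at 62.0 and 73.6 CPM in *Dot1l*-cKO and at 79.0 and 82.6 CPM in control. Within each litter every *Dot1l*-cKO embryo was thus below every control, while pooled over the litters the groups overlapped, because *Gli3* was higher throughout litter 2. The fitted log2 fold change of *Gli3* was -0.43 ± 0.12 (SE), a level 25.8% lower, with an adjusted p of 0.0627. It was -0.55 ± 0.15 in litter 1 (adjusted p = 0.108) and -0.25 ± 0.18 in litter 2 (adjusted p = 0.50).

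The *Gli3* call depended on the tool and on a single embryo. With DESeq2 on the same model *Gli3* passed (adjusted p = 0.00825), where 3.86% of all genes were called lower. It also passed without the litter 1 *Dot1l*-cKO embryo with the highest *Gli3*, with a log2 fold change of -0.54 (adjusted p = 0.0314; 1.39% of all genes lower) across litters and -0.79 in litter 1 (adjusted p = 0.00602). It did not pass with any of the other 9 embryos left out (adjusted p up to 0.169), and without the *Dot1l*-cKO embryo with the lowest *Gli3* its log2 fold change was -0.31 across litters (adjusted p = 0.107) and -0.37 in litter 1 (adjusted p = 0.35). A robust edgeR fit gave an adjusted p of 0.142. Within litter 1, *Gli2*, *Boc* and *Cdon* were also called lower when the embryo with the highest *Gli3* was left out, while the calls over all genes there rose as well, to 1.99% lower. The same embryo had 1751 CPM of summed mesenchyme markers and 2320 CPM of summed progenitor markers, the highest of the 3 *Dot1l*-cKO embryos of litter 1 for both; the part of these levels in the result was not tested.

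*Gli2*, the main activator, stood at 17.7, 21.8 and 29.7 CPM in *Dot1l*-cKO and at 25.3, 27.4 and 33.8 CPM in control of litter 1. In litter 2 it stood at 40.2 and 42.7 CPM in *Dot1l*-cKO and at 42.0 and 44.0 CPM in control, so that the groups overlapped in both litters. Its log2 fold change of -0.21 ± 0.12 did not pass (adjusted p = 0.321) and ranged from -0.32 to -0.11 with 1 embryo left out.

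*Gli1*, an activator and the most direct readout of the pathway, stood at 14.8, 16.0 and 22.4 CPM in *Dot1l*-cKO and at 17.2, 22.2 and 23.1 CPM in control of litter 1. In litter 2 it stood at 16.5 and 18.2 CPM in *Dot1l*-cKO, above the 12.9 CPM of both controls. The litters therefore differed in sign, with a log2 fold change of -0.23 ± 0.14 in litter 1 (adjusted p = 0.491) and 0.43 ± 0.18 in litter 2 (adjusted p = 0.256). Over both litters it came to 0.03 ± 0.14 (adjusted p = 0.937). The difference of the effect between litters, 0.66 ± 0.23, did not pass for *Gli1* (adjusted p = 0.513) nor for any other member, while 0.00978% of all genes passed, and at an unadjusted p of 0.05 it was *Gli1* alone among the 9, beside 8.05% of all genes, which is near the background. With DESeq2 the interaction called 0 members as well, beside 0.583% of all genes.

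The other readout genes had slightly lower means in *Dot1l*-cKO in both litters. *Ptch1*, receptor and feedback inhibitor, stood at 155, 167 and 174 CPM in *Dot1l*-cKO and 162, 178 and 204 CPM in control of litter 1, and at 189 and 192 CPM against 207 CPM in both controls of litter 2. Its log2 fold change was -0.13 ± 0.06 (adjusted p = 0.199). *Hhip*, which traps the ligand at the membrane, stood at 9.32, 9.89 and 10.7 CPM against 10.0, 11.2 and 13.5 CPM in litter 1 and at 11.1 and 11.2 CPM against at least 12.0 CPM in both controls of litter 2. Its log2 fold change was -0.18 ± 0.08 (adjusted p = 0.22). Without the litter 1 control with the highest *Ptch1* and *Hhip* the log2 fold changes were -0.08 and -0.11. Neither gene passed the test, and both overlapped between genotypes in litter 1 and not in litter 2. The share of all genes that separate within a single litter was not counted. With so few embryos per litter, such separation is therefore only a description, also for *Gli1* in litter 2 and *Shh* in litter 1.

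Of the reception genes, *Cdon* stood at 36.2, 40.1 and 46.0 CPM in *Dot1l*-cKO and at 46.7, 46.8 and 48.3 CPM in control of litter 1. In litter 2 *Cdon* stood at 54.9 and 60.1 CPM in *Dot1l*-cKO and at 71.4 and 73.1 CPM in control. As for *Gli3*, every *Dot1l*-cKO embryo was below every control of its litter, and of all genes tested 4.14% were lower without overlap in each litter, against 2 of 9 members. The log2 fold change of *Cdon* was -0.26 ± 0.06, a level 16.5% lower (adjusted p = 0.041). It was -0.21 ± 0.08 in litter 1 (adjusted p = 0.211) and -0.33 ± 0.10 in litter 2 (adjusted p = 0.143).

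The *Cdon* call lay close to the threshold. It was lost when any of 8 of the 10 embryos was left out (adjusted p up to 0.135), with *Xist* as a covariate (-0.20, adjusted p = 0.299), with GC content correction (-0.25, adjusted p = 0.0525), without litter in the model (-0.27, adjusted p = 0.637) and without both *Dot1l*-cKO embryos of litter 2 (-0.21, adjusted p = 0.265), the direction being kept each time. It was kept with DESeq2 (adjusted p = 0.00447).

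*Boc*, the related co-receptor, stood at 40.2, 44.5 and 59.5 CPM in *Dot1l*-cKO and 50.1, 52.4 and 57.4 CPM in control of litter 1, and at 90.8 and 95.4 CPM against 91.9 and 97.9 CPM in litter 2. The genotypes overlapped in both litters, with a log2 fold change of -0.10 ± 0.09 (adjusted p = 0.538). The transducer *Smo* stood at 66.1, 67.9 and 81.1 CPM against 74.8, 82.7 and 84.4 CPM in litter 1 and at 102 and 112 CPM against 101 and 102 CPM in litter 2. Its log2 fold change was -0.07 ± 0.07 (adjusted p = 0.57), again with overlap in both litters. With 1 embryo left out, the log2 fold change over both litters ranged from -0.189 to -0.0273 for *Boc* and from -0.112 to -0.0246 for *Smo*.

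The ligand *Shh* stood at 10.1, 10.5 and 11.5 CPM in *Dot1l*-cKO, above the 9.36, 9.76 and 9.82 CPM of the controls in litter 1. In litter 2 it stood at 10.4 and 12.1 CPM against 11.6 and 13.0 CPM, with overlap. The log2 fold change was 0.04 ± 0.08 over both litters (adjusted p = 0.84), 0.15 ± 0.10 in litter 1 (adjusted p = 0.519) and -0.13 ± 0.12 in litter 2 (adjusted p = 0.617). The 6 floor plate markers of the ligand-producing cells had fitted differences in both directions, 4 above and 2 below 0 in litter 1 and 2 above and 4 below 0 in litter 2, with the floor plate factor *Foxa2* at log2 fold changes of -0.22 and -0.08. They summed to 736 to 787 CPM in *Dot1l*-cKO and 683 to 722 CPM in control of litter 1, and to 713 to 759 CPM against 772 to 792 CPM in litter 2; 0 of the 6 were called, and their part in the *Shh* values was not tested. In the fit of both litters, 0.597% of 20446 genes were called in either direction within litter 1 and 0.254% within litter 2, and 0 of 9 members in each. At an unadjusted p of 0.05 there were 2 members in litter 1 (*Gli3* and *Cdon*) and 2 in litter 2 (*Gli1* and *Cdon*), beside 15.2% and 16.8% of all genes. The shares of the members were thus near the background. DESeq2 called 0 members in litter 1 and 1 in litter 2, *Cdon*, beside 4.19% and 3.56% of all genes.

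**Figure D2:**
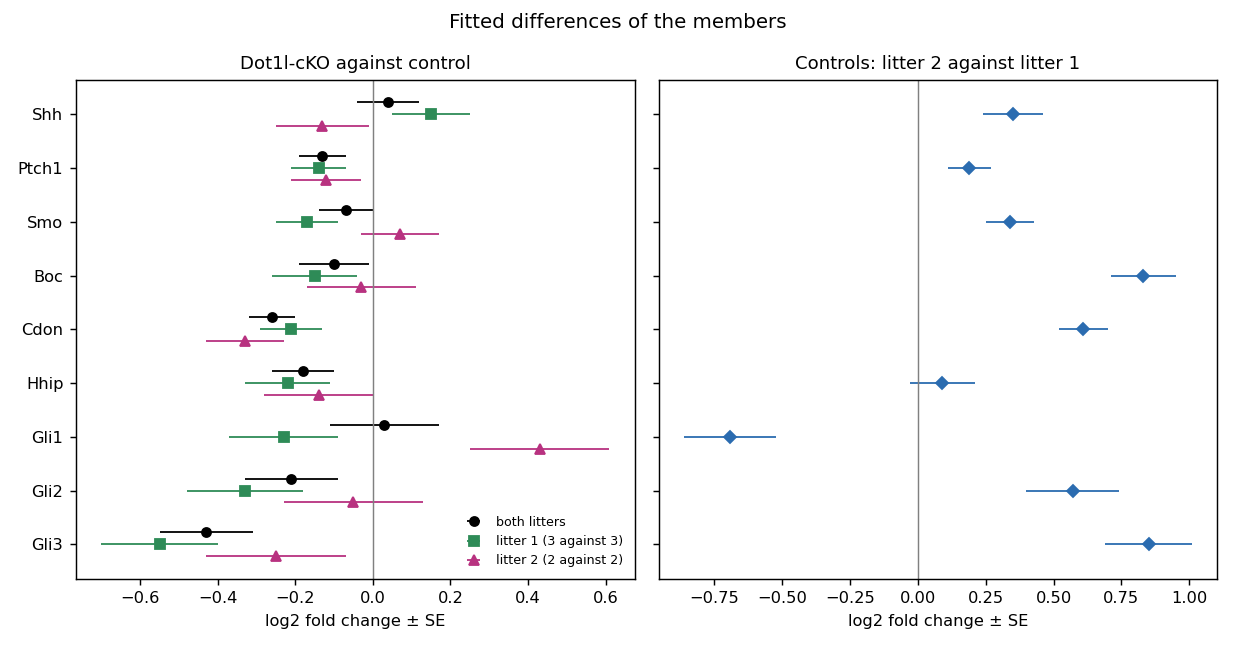
Fitted log2 fold change ± SE of the 9 members (edgeR). Left, *Dot1l*-cKO against control over both litters (circles), in litter 1 (squares) and in litter 2 (triangles), where *Gli3* and *Cdon* lie below 0 in all 3 fits and *Gli1* lies on opposite sides of 0 in the litters; right, controls of litter 2 against controls of litter 1, where *Gli3* and *Boc* lie highest and *Gli1* is the only member below 0.

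To separate the dorsal repressor from the ventral targets within each embryo, the log2 ratio of *Gli3* counts to those of *Gli1*, *Ptch1* and *Hhip* was compared within litters. The ratio does not depend on library size or normalisation. *Gli3*/*Gli1* was 0.60, 0.83 and 0.87 in the *Dot1l*-cKO embryos and 0.99, 1.09 and 1.26 in the controls of litter 1. In litter 2 it was 1.91 and 2.01 in *Dot1l*-cKO and 2.62 and 2.67 in control. The genotypes did not overlap in either litter, and the ratio was lower by a log2 difference of -0.48 in *Dot1l*-cKO (exact permutation within litters, two-sided p = 0.0167, the smallest that 120 arrangements can give; adjusted p = 0.05 over the 3 ratios). By litter it came to -0.35 (litter 1) and -0.69 (litter 2), and in the latter *Gli3* stood below and *Gli1* above both controls. The fitted log2 fold change in litter 2 was 0.43 for *Gli1* and -0.25 for *Gli3*, so *Gli1* made up the larger part of that difference. Genotype and sex cannot be told apart in litter 2, and the part of attached tissue in the ratio was not tested.

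*Gli3*/*Ptch1* was -2.79, -2.51 and -2.12 in *Dot1l*-cKO and -2.12, -2.11 and -1.82 in control of litter 1, and -1.61 and -1.38 against -1.39 and -1.33 in litter 2. It was lower by -0.33 (exact permutation p = 0.0333, adjusted p = 0.05), with -0.46 in litter 1, where the genotypes met at -2.12, and -0.14 in litter 2, where they overlapped. *Gli3*/*Hhip* ranged from 1.27 to 1.89 against 1.81 to 2.19 in litter 1 and from 2.46 to 2.73 against 2.71 to 2.72 in litter 2. Its difference of -0.28 did not pass (exact permutation p = 0.15, adjusted p = 0.15). The 3 ratios share *Gli3* and are not independent of each other, and the adjusted values of the first 2 lay at the threshold and not below it.

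**Figure D3:**
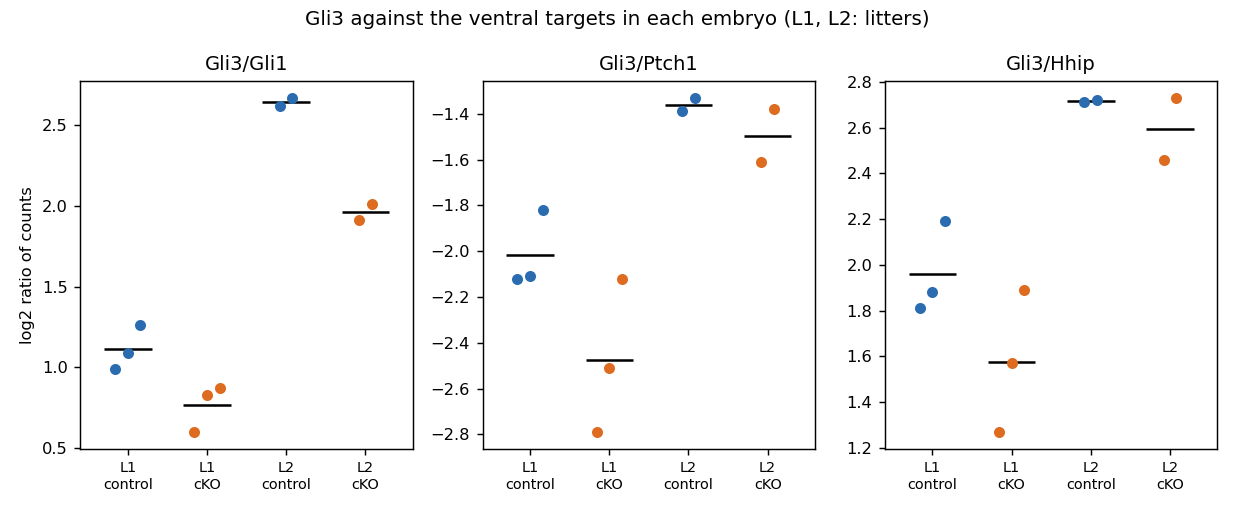
Log2 ratio of the counts of *Gli3* to those of *Gli1*, *Ptch1* and *Hhip* in every embryo, by litter (L1, L2) and genotype; points are embryos, bars are means, and the vertical axes do not start at 0. *Gli3*/*Gli1* is separated by genotype in both litters, and all 3 ratios lie higher in litter 2 than in litter 1.

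More members were called between litters than between genotypes. Among controls, litter 2 was higher than litter 1 for 6 of 9 members (*Shh*, *Smo*, *Gli2*, *Gli3*, *Boc* and *Cdon*), beside 11.5% of all genes, and lower for 1 member, *Gli1*, beside 11.8% of all genes. *Gli3* averaged 80.8 ± 2.52 CPM (n = 2) in litter 2 and 44.8 ± 3.25 CPM (n = 3) in litter 1, a log2 fold change of 0.85 ± 0.16 (adjusted p = 0.00225). *Boc* averaged 94.9 ± 4.27 against 53.3 ± 3.72 CPM, a log2 fold change of 0.83 ± 0.12 (adjusted p = 0.00041). *Cdon* averaged 72.3 ± 1.14 against 47.3 ± 0.867 CPM, a log2 fold change of 0.61 ± 0.09 (adjusted p = 0.000297).

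*Gli2* (0.57 ± 0.17, adjusted p = 0.0235), *Shh* (0.35 ± 0.11, adjusted p = 0.0322) and *Smo* (0.34 ± 0.09, adjusted p = 0.014) were higher by smaller amounts. The *Shh* call was lost in edgeR with scaling by library size only (adjusted p = 0.0649) and with no expression filter (adjusted p = 0.0636). *Gli1* went the other way, from 20.8 ± 3.21 CPM (n = 3) in litter 1 to 12.9 ± 0.0636 CPM (n = 2) in litter 2, a log2 fold change of -0.69 ± 0.17 (adjusted p = 0.00975). Of the other readout genes, *Ptch1* (0.19 ± 0.08, adjusted p = 0.121) and *Hhip* (0.09 ± 0.12, adjusted p = 0.667) did not pass. Leaving out 1 control left 3 to 7 members called. The count was 4 without the litter 1 control with the lowest *Gli3*, and 3 without either control of litter 2. *Gli3*, *Boc* and *Cdon* were called in each case.

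Cell type markers differed between the litters at the same time. Of 8 neural progenitor markers 6 were called higher and 0 lower in litter 2 controls, and their sum was 2943 to 3088 CPM against 2125 to 2375 CPM in litter 1. Of 10 dorsal root ganglion neuron markers 8 were lower and 0 higher, and their sum was 568 to 577 CPM against 1018 to 1089 CPM. Of 6 Schwann cell precursor markers 5 were lower, of 6 endothelial markers 5 and of 12 mesenchyme markers 5, whereas of 8 neuron markers 2 were lower. The part of these cell types in the litter difference of the members was not tested. Of 9 transcription factors that hedgehog signalling limits ventrally, 5 were called higher and 0 lower in litter 2 controls, such as the dorsal factor *Pax3* (0.84 ± 0.13, adjusted p = 0.000684). *Pax6* is counted both there and among the progenitor markers. Of the 7 ventral factors that hedgehog induces and that were tested, 0 were called. Beside all these counts, 11.5% of all genes were higher and 11.8% lower in litter 2 controls.

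**Figure D4:**
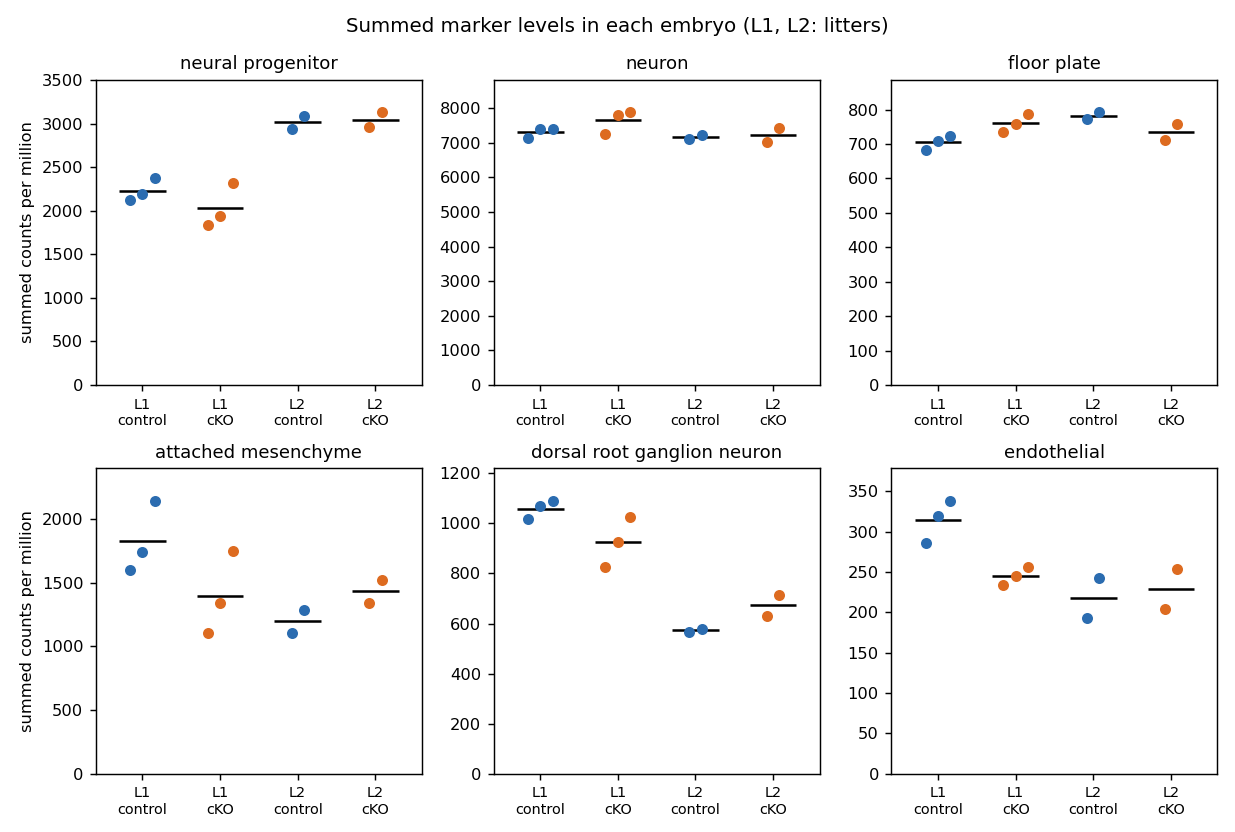
Summed CPM (linear axes from 0) of 6 marker lists in every embryo, by litter (L1, L2) and genotype; points are embryos and bars are means. Progenitor marker sums lie higher and dorsal root ganglion neuron sums lower in litter 2, and in litter 1 the endothelial sums of *Dot1l*-cKO (234 to 256) lie below those of control (285 to 338).

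Between genotypes fewer genes of these lists were called. Neural progenitor markers summed to 1840 to 2320 CPM in *Dot1l*-cKO and 2125 to 2375 CPM in control of litter 1, and to 2963 to 3129 CPM against 2943 to 3088 CPM in litter 2, with 0 of 8 called over both litters; the smallest p values were those of *Nes* (-0.14 ± 0.07, adjusted p = 0.256) and *Notch1* (-0.20 ± 0.10, adjusted p = 0.267). Endothelial markers summed to 234 to 256 CPM in *Dot1l*-cKO against 285 to 338 CPM in control of litter 1 and overlapped in litter 2, with 0 of 6 called. Mesenchyme markers summed to 1103 to 1751 against 1601 to 2142 CPM in litter 1 and 1340 to 1526 against 1108 to 1287 CPM in litter 2, with 0 of 12 called, so that the sums lay in opposite directions in the litters. Of the dorsal root ganglion list, *Drgx* (0.32 ± 0.08, adjusted p = 0.048) was higher and *Runx3* (-0.71 ± 0.18, adjusted p = 0.048) was lower in *Dot1l*-cKO. Within litter 1, 3 of its 10 genes were called lower and 0 higher, and within litter 2, 2 higher and 0 lower, beside 0.597% and 0.254% of all genes in either direction. Its sums were 828 to 1027 against 1018 to 1089 CPM in control of litter 1, and 631 to 714 against 568 to 577 CPM in litter 2. *Krt8* of the notochord list was higher (1.62 ± 0.36, adjusted p = 0.035) at a mean of 0.583 CPM. Of the 12 mesenchyme markers, 12 had fitted log2 fold changes below 0 in litter 1. In litter 2, 10 lay above and 2 below 0. *Gli1* likewise lay below 0 in litter 1 (-0.23) and above 0 in litter 2 (0.43). The part of these cell types in the *Gli3*, *Cdon* and *Gli1* values was not tested.

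Of 34 other pathway genes, 34 were tested, 2 were lower in *Dot1l*-cKO and 0 were higher, beside 1.09% and 1.90% of all genes tested, and their median log2 fold change was -0.05, beside -0.008. Both called genes act at the cell surface or outside the cell, as *Cdon* does. *Lrp2*, an endocytic receptor that binds SHH, stood at 0.65 times the control level with a log2 fold change of -0.63 ± 0.12 (adjusted p = 0.027). *Scube2*, which helps to release the lipid-modified ligand, had a log2 fold change of -0.44 ± 0.09 (adjusted p = 0.0318). *Lrp2* stood at 10.5, 14.9 and 15.4 CPM in *Dot1l*-cKO and 16.7, 23.6 and 26.1 CPM in control of litter 1, and at 22.8 and 23.4 CPM against 29.9 and 35.7 CPM in litter 2. *Scube2* stood at 10.7, 14.9 and 15.1 CPM in *Dot1l*-cKO and 16.0, 17.3 and 18.2 CPM in control of litter 1, and at 24.4 and 27.3 CPM against 37.1 and 41.1 CPM in litter 2. Both genes lay below control without overlap in each litter, as did 4.14% of all genes.

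Downstream of the receptors no listed gene was called. Among 16 intracellular regulators the smallest p values belonged to the ciliary protein gene *Evc* (-0.28 ± 0.10, adjusted p = 0.133) and to *Btrc* (-0.10 ± 0.04, adjusted p = 0.202), which encodes a ubiquitin ligase subunit that marks GLI proteins for processing. Among 8 genes of the cilium and its transport they belonged to *Ift172* (-0.15 ± 0.05, adjusted p = 0.121) and *Dync2h1* (-0.20 ± 0.08, adjusted p = 0.176). Of the 6 ventral transcription factors tested, the motor neuron progenitor factor *Olig2* (0.35 ± 0.12, adjusted p = 0.103) and *Nkx6-2* (0.57 ± 0.24, adjusted p = 0.175) had the smallest p values. Of the 9 factors limited ventrally these were *Pax3* (-0.35 ± 0.09, adjusted p = 0.057) and *Irx3* (0.40 ± 0.16, adjusted p = 0.156). Floor plate genes likewise did not pass, with *Ntn1* at 0.14 ± 0.05 (adjusted p = 0.096) and *Spon1* at -0.10 ± 0.05 (adjusted p = 0.273).

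The genes whose levels followed *Gli3* most closely from embryo to embryo, after centring log2 CPM within each litter and genotype, were *Diaph3* (Pearson r = 0.987), *Aurkb* (0.980), *4933415A04Rik* (0.979), *Jag1* (0.978) and *Nsl1* (0.976), over 10 embryos and among 13511 genes. For *Gli1* they were *Hmox1* (0.994), *Fanca* (0.988), *Rhot2* (0.986), *Scpep1* (0.978) and *Tob2* (0.975). *Diaph3*, *Aurkb* and *Nsl1* act in cell division and *Jag1* is a Notch ligand, while *Hmox1* degrades haem and *Fanca* acts in DNA repair. The 2 lists share no gene. Centring left 6 independent deviations and the points share litters, so these values describe the embryos only, and the closest gene reached a Pearson r of at least 0.984 for each of the 9 members.

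The members lie on 8 chromosomes of mm10. *Ptch1* (chr13:63508328-63573598) and *Gli3* (chr13:15463235-15730026) share chromosome 13. *Cdon* lies at chr9:35421128-35507652, *Boc* at chr16:44485049-44558897, *Hhip* at chr8:79965851-80058006, *Gli1* at chr10:127329882-127341974, *Gli2* at chr1:118834132-119053619, *Smo* at chr6:29735503-29761365 and *Shh* at chr5:28456815-28467256. *Ptch1*, *Smo*, *Gli2*, *Boc* and *Cdon* share no exon bases with another gene. *Gli1* shares some with the antisense *Arhgap9* (34 to 101 counts), *Gli3* with *Gm6556* (46 to 93 counts) and *Shh* with *9530036O11Rik* (0 to 39 counts) and *Gm26894* (3 to 21 counts), and whether counting used strand is not given in the sources used here, so reads in the shared bases cannot be told apart. *Gm47200* at *Gli1* and *Gm27820* at *Hhip* were at 0 in every embryo. The other partners held few counts beside those of the members.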

How the data were processed

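The deposited table held counts of reads per gene, which the authors made from paired-end reads of polyA libraries (NEBNext Ultra RNA kit) with the snakePipes workflow, that is, TrimGalore trimming, STAR alignment to mm10 (GRCm38, also named in the submitters' processing notes) and featureCounts on a GENCODE annotation. All 10 deposited columns were used, 0 were left unmapped. Identifiers were matched without version to GENCODE M21, which supplied symbols, coordinates and exon lengths (54079 of 54146 matched).

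Counts were tested with edgeR 4.0.16 (R 4.3.3): TMM, filterByExpr, quasi-likelihood F test, Benjamini-Hochberg over all genes tested, called at an adjusted p below 0.05. The comparison over both litters had litter as covariate (19773 genes tested). Comparisons within litters, between litters among controls, and of the effect between litters came from a fit with a coefficient for each litter and genotype (20446 genes tested). CPM and RPKM use TMM-scaled library sizes. Ratios of *Gli3* to *Gli1*, *Ptch1* and *Hhip* used counts with a pseudocount of 0.5 and an exact permutation test within litters (scipy). On simulated counts of 19401 genes for the comparison over both litters, edgeR recovered 148 of 200 genes changed by a log2 fold change of 0.8, with 11 false calls. The simulated counts held no litter effect, and 0.8 exceeded the fitted change of every member over both litters. The recovery therefore does not apply to changes of the size seen in the members. Replicates of a group and litter differed beyond sampling noise (mean chi-square per gene 9.31 to 26.2). Alternatives were DESeq2 1.42.0, limma-voom (limma 3.58.1), other scalings and filters, other covariates, GC content correction and leaving out embryos.

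The members, gene lists and tests were chosen with earlier results of these data known. All members are named; of the other lists, the genes called over both litters, genes that define a cell type, and for a list with no call the 2 genes with the smallest p; *Pax3* in the litter comparison was chosen after its value was seen. Some genes of the marker lists are not reported here by name. For likeness, the 5 genes with the highest Pearson r were named, among genes with a mean log2 CPM of at least 1. Counting depth was high, so that the number of embryos and not depth limits the precision.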

Additional observations from a re-analysis of the deposited data

How the results depend on the processing

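Against 1 member called over both litters, DESeq2 called 2 (*Gli3* and *Cdon*) and edgeR with no expression filter 3 (with *Gli2*), while 0 were called without litter in the model, with *Xist* as a covariate, with GC content correction, or without both *Dot1l*-cKO embryos of litter 2 (chosen after seeing the data). Leaving out 1 embryo gave 0 to 2. Over all genes DESeq2 called 860 higher and 648 lower against 376 and 215, no expression filter 1346 and 855, and the model without litter 0 and 0. Within litter 1, no filter gave 2 members (beside 3.96% of all genes) and leaving out 1 embryo 0 to 4. Within litter 2, DESeq2 gave 1 (3.56%), no filter 2 (3.79%) and litter 2 alone 2 (*Gli1* and *Cdon*; 5.13%, against 0.254% in the fit of both litters), and for the difference between litters no filter gave 1 (*Gli1*; 1.24%). Between litters among controls, 3 to 7 members were called with 1 embryo left out. *Gli1* over both litters changed sign with limma-voom (-0.0137), without litter (-0.0055), with *Xist* (-0.263), with GC correction (-0.103) and without both litter 2 *Dot1l*-cKO embryos (-0.227), and ranged from -0.0437 to 0.132 with 1 embryo left out, so it has no direction. Leaving out 1 embryo also turned *Shh* over both litters (-0.0045 to 0.0999), *Boc* in litter 2 (-0.0697 to 0.0232), the litter difference of *Ptch1* (-0.0717 to 0.0923) and *Hhip* (-0.0447 to 0.168), and *Hhip* between control litters (-0.0043 to 0.208). Rearranging genotypes across litters gave p = 0.349 for *Gli3*/*Gli1* (-0.48) and p = 0.317 for *Gli3*/*Ptch1* (-0.33; exact permutation); with 1 embryo left out the latter ranged from -0.40 to -0.23 and kept p below 0.05 in 4 of 10 cases. *Gli3* and *Cdon* kept their sign over both litters under every alternative, with adjusted p from 5.02e-10 to 0.72 and from 0.001 to 0.637. The causes were not tested. No paired analysis was possible because the genotypes share no replicate numbers, and litter stood in the model instead.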
